A study of Mus musculus with 8 samples.

Results

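The regenerating islet derived (Reg) genes encode small secreted proteins with a lectin-like fold. Reg1 protein was first known as lithostathine of pancreatic juice, and acinar cells, which make the digestive enzymes of the exocrine pancreas, are its main source in the healthy organ. The Reg3 proteins are acute phase products of the inflamed or injured pancreas and of the gut, where Reg3g and Reg3b act against bacteria. Reg genes were named for their induction in regenerating islets, and cytokines of the IL-6 and IL-22 families, which signal through STAT3, are known inducers.

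The family was taken as the 7 rows of the count table with the symbols Reg1, Reg2, Reg3a, Reg3b, Reg3d, Reg3g and Reg4, of 32531 gene symbols in all. RNA was sequenced from isolated islets of 4 controls (RIP-Cre+, Rosa26-rtTA+, tetO_NICD-) and 4 β-tetO-NICD mice (RIP-Cre+, Rosa26-rtTA+, tetO_NICD+). Both groups carried Cre and rtTA and received doxycycline (Dox) for 8 weeks, and only β-tetO-NICD mice carried the transgene for NICD, the intracellular part of Notch1 that signals without ligand. These islets are also called Notch-active. The lines were kept on a mixed background of C57BL/6J, 129X1/SvJ and BALB/c, and age at collection is not given in the sources used here. An insulin promoter drives Cre, so the transgene is directed to β cells and not to the acinar cells that make most Reg1. The β-tetO-NICD columns of the table are numbered 1, 2, 4 and 5 and the mice are labelled 1 to 4, so libraries 4 and 5 were assigned to the group but to no single mouse.

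Totals ran from 21701223 to 26413146 counts per library. The labels were checked with Notch1, at 56.8 ± 10.7 CPM (counts divided by normalized library size) in controls against 1029 ± 331 CPM in Notch-active islets, and its target Hes1, at 7.24 ± 1.03 against 44.2 ± 10.6 CPM (SD, n = 4 each), both without overlap. Eif2s3y, a Y-linked gene, was present in 3 libraries, with 1300 counts in control 2, 1527 in control 4 and 1465 in Notch-active library 5, whereas the other 5 had no more than 1 count. The study's methods describe gene expression work on male islets, and the labels used here do not settle the sex of each mouse. The islet label was checked with the 10 β cell markers, which summed to between 157051 and 197631 CPM in controls and between 72353 and 172043 CPM in Notch-active islets, with no member at 0 in any library. Acinar RNA accompanied the islets in every library, as described with the results it touches.

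Of the 7 Reg genes, 6 lie within 98.2 kb of chromosome 6 (GRCm38, 78370657 to 78468872, GENCODE M21). In order along the chromosome these are Reg3b (78370657 to 78373466, plus strand), Reg3d (78375874 to 78378865, minus strand), Reg3a (78380709 to 78383827, plus strand), Reg2 (78395623 to 78408106, plus strand), Reg1 (78422711 to 78428667, plus strand) and Reg3g (78466269 to 78468872, minus strand). Reg4 is on chromosome 3 (98222156 to 98236748, plus strand). Kallisto, which the authors used, assigns reads by short exact words, and of the 31-base words of each gene, 0.675% of those of Reg3g and 0.595% of those of Reg3b were shared with another Reg gene, and none of those of the other 5. Reg1 and Reg2, the closest pair, were 80.4% identical over 674 aligned bases of their longest coding transcripts but shared no 31-base word. With words of any other gene included, 5.70% of Reg1 words and 7.65% of Reg2 words were shared.

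Upstream sequence is shown for Reg1, which followed acinar RNA in these libraries, and for Reg2, Reg3a and Reg3b, which varied together. Each line is the 250 bases before the RefSeq start (GRCm38.p6), on the gene's own strand, which is plus for all 4. Capitals mark the TATA box TATAAA, the E-box CACCTG, the core RBPJ motif TGGGAA and the STAT motif TTCNNNGAA, or their reverse complements. RBPJ is the DNA-binding partner of NICD. The windows are chr6:78425733-78425982 for Reg1, chr6:78404905-78405154 for Reg2, chr6:78380459-78380708 for Reg3a and chr6:78370635-78370884 for Reg3b. For Reg1, Reg2 and Reg3b the RefSeq start lies inside the GENCODE span given above.
Reg1: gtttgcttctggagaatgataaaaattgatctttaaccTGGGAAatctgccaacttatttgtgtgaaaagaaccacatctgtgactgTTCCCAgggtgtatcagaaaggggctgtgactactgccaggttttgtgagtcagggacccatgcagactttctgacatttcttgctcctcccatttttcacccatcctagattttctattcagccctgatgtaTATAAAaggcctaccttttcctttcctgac
Reg2: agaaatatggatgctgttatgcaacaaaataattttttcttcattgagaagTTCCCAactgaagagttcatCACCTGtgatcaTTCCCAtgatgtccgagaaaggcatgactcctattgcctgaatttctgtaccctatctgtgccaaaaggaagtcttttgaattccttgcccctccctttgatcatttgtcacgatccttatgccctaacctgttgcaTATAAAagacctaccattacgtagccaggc
Reg3a: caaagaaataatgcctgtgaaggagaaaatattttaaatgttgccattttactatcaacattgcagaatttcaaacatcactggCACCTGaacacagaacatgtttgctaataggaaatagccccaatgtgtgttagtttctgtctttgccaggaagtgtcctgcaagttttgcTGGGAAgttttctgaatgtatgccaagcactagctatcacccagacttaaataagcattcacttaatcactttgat
Reg3b: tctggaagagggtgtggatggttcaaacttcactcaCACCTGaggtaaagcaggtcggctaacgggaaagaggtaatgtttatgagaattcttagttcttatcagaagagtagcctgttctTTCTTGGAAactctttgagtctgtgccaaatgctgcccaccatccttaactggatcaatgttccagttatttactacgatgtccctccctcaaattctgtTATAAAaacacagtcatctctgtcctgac

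Both strands were searched. TATAAA began 30 bases before the start in Reg1 and Reg2 and 29 before it in Reg3b, and was not in the Reg3a window. It was present in 4 of 7 Reg windows and in 12.4% of the 32851 mouse promoters of the same length. CACCTG was in 5 of 7 Reg windows, those of Reg2, Reg3a, Reg3b, Reg3d and Reg4, and in 17.2% of all promoters. TGGGAA was in 5 of 7, with 2 matches each in Reg1, Reg2, Reg3d and Reg3g and 1 in Reg3a, against 21.6% of promoters with at least 1 match and 2.77% with at least 2. The STAT motif was in Reg3b and Reg3d and in 7.02% of all promoters, and the Reg3d match overlaps one of its TGGGAA matches. The 7 windows belong to related genes, with 53.9% to 71.9% identity between pairs over their aligned bases, so they do not count as independent promoters. These matches describe letters only.

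Reg1 was the dominant Reg transcript of every library, at 84.0% to 98.5% of family counts, and the family together took 0.0728% to 0.276% of all counts. The 95% binomial interval (Wilson) of the Reg1 share was at most 0.806 percentage points wide, which covers counting error only. Per kilobase of transcript, control levels were 993 ± 147 CPM per kb for Reg1, 22.8 ± 18.3 for Reg2, 16.7 ± 3.46 for Reg3d, 7.10 ± 4.59 for Reg3b, 0.487 ± 0.495 for Reg3a, 0.225 ± 0.209 for Reg3g and 0.0113 ± 0.0226 for Reg4 (SD, n = 4 each). Reg1 was above every other member in all 8 libraries. Reg2 and Reg3d were closer than their spread, as were Reg3a and Reg3g. Reg3d was above Reg3b per kilobase in all 4 controls and in β-tetO-NICD libraries 1 and 2, whereas Reg3b was above Reg3d in libraries 4 and 5, at 21.65 against 10.9 and 86.5 against 45.8 CPM per kb.

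No Reg gene passed the test between controls and β-tetO-NICD islets, and control and β-tetO-NICD values overlapped for each. After a count minimum of 10 in at least 4 of 8 libraries, 5 of the 7 members could be tested, and 0 of the 5 had an adjusted p under 0.05 by edgeR (quasi-likelihood test, Benjamini-Hochberg adjustment over all 15082 genes tested). Over those genes, 6.76% passed and 16.1% showed no overlap between the groups. All 5 estimates were positive, with a median log2 fold change of 1.55 beside 0.00 over all genes tested, and no estimate was separated from 0 by the spread between mice. The 5 estimates are not independent, since Reg2, Reg3a and Reg3b varied together and were all highest in β-tetO-NICD library 5. The labels name each sample as a separate mouse, but which mouse gave libraries 4 and 5 was not settled.

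Reg1 had 1089, 878, 784 and 841 CPM in controls 1 to 4 and 2798, 750.3, 586 and 1343 CPM in Notch-active libraries 1, 2, 4 and 5. The controls lay inside the range of the β-tetO-NICD libraries, which held both the lowest and the highest values. Group means were 898 ± 133 and 1369 ± 1006 CPM (SD, n = 4 each), with a log2 fold change of 0.61 (SE 0.44, edgeR adjusted p = 0.341). Without β-tetO-NICD library 1 the estimate was −0.00479.

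Reg2, the paralog next to Reg1 in mice, had 4.70, 11.6, 13.1 and 34.4 CPM in controls 1 to 4 and 16.1, 2.71, 25.8 and 142 CPM in Notch-active libraries 1, 2, 4 and 5. The lowest and the highest library were both from β-tetO-NICD mice, 52.6-fold apart. The log2 fold change was 1.55 (SE 0.98, edgeR adjusted p = 0.286) from 15.9 ± 12.8 to 46.7 ± 64.4 CPM (SD, n = 4 each), and it was −0.10 without β-tetO-NICD library 5.

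Reg3b, known as pancreatitis-associated protein, had 2.58, 5.19, 3.76 and 10.7 CPM in controls 1 to 4 and 3.85, 1.18, 17.0 and 67.7 CPM in Notch-active libraries 1, 2, 4 and 5. Libraries 4 and 5 were above all controls, and libraries 1 and 2 fell among or below them. Its mean was 5.56 ± 3.59 CPM in controls and 22.4 ± 30.97 CPM in Notch-active islets (SD, n = 4 each), a log2 fold change of 2.01 (SE 1.003, edgeR adjusted p = 0.194). Leaving out β-tetO-NICD library 5 gave 0.41.

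Reg3a, another member of the Reg3 group, was near the detection limit, with 4, 5, 5 and 25 counts in controls 1 to 4 and 10, 4, 12 and 145 counts in Notch-active libraries 1, 2, 4 and 5. Control 4 and β-tetO-NICD library 5 stood above the others of their groups. Its log2 fold change of 2.33 (SE 1.15, edgeR adjusted p = 0.191) rested on means of 0.402 ± 0.408 and 2.09 ± 3.48 CPM (SD, n = 4 each). Without any 1 of control 4 or β-tetO-NICD libraries 1, 4 and 5, Reg3a fell under the count minimum and was not tested.

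Reg3d, a pancreatic member of the group, spanned 4.19-fold in CPM over the 8 libraries, the narrowest range of the family, with 10.05, 13.2, 12.4 and 16.6 CPM in controls 1 to 4 and 23.6, 15.8, 8.56 and 35.8 CPM in Notch-active libraries 1, 2, 4 and 5. Libraries 1 and 5 were above all controls and library 4 was below them. From 13.1 ± 2.71 to 20.9 ± 11.7 CPM (SD, n = 4 each), the log2 fold change was 0.68 (SE 0.37, edgeR adjusted p = 0.229), and 0.29 without β-tetO-NICD library 5.

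Reg3g had 1, 2, 4 and 10 counts in controls 1 to 4 and 2, 6, 6 and 40 counts in Notch-active libraries 1, 2, 4 and 5, so it reached the count minimum in only 2 libraries. The same libraries, control 4 and β-tetO-NICD library 5, were highest in their groups. In a fit with no count filter over 21879 genes its log2 fold change was 1.79 (SE 0.94, edgeR adjusted p = 0.257). Reg4, a member expressed mainly in intestine, had at most 1 count in any library and 0 in 5 of the 8, where 3 counts would correspond to 0.119 to 0.142 CPM, so a difference was not detectable at this depth.

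**Figure D1:**
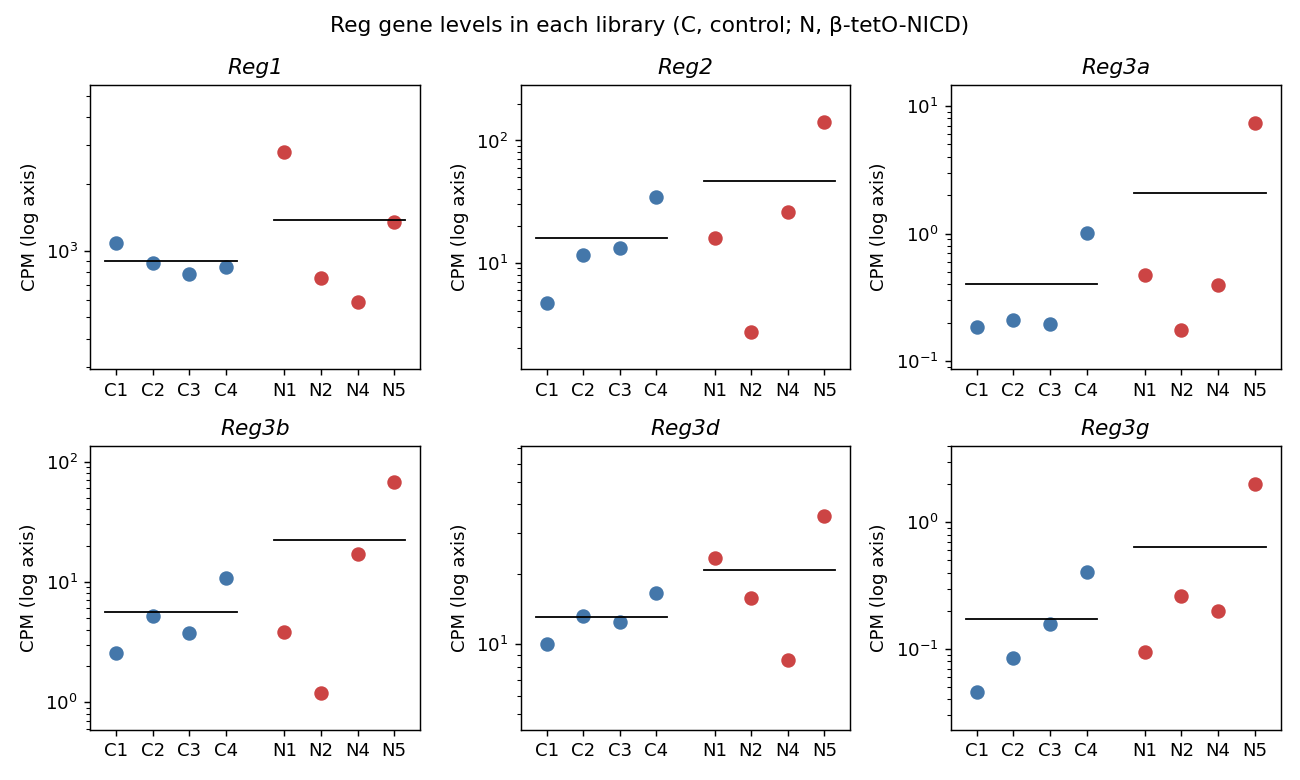
Level of 6 Reg genes in each library in CPM on a log axis, with controls (C1 to C4) in blue, β-tetO-NICD libraries (N1, N2, N4 and N5) in red and horizontal lines at group means. β-tetO-NICD library 5 was the highest of all 8 for Reg2, Reg3a, Reg3b, Reg3d and Reg3g, and library 1 was the highest for Reg1, at 2798 CPM.

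**Figure D2:**
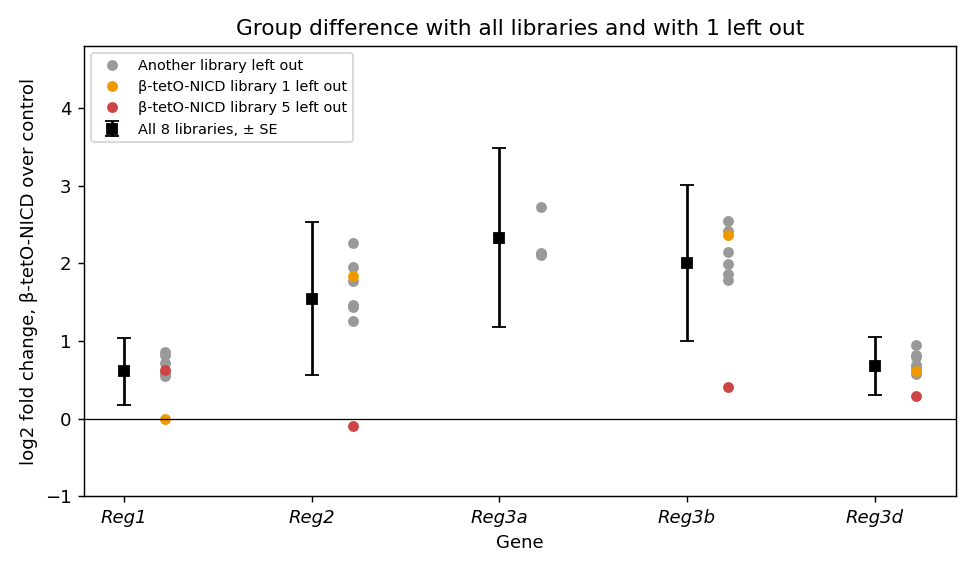
Log2 fold change of β-tetO-NICD over control for the 5 tested Reg genes, with all 8 libraries (squares, ± SE) and with 1 library left out (circles). Leaving out library 5 moved Reg2 to −0.10 and Reg3b to 0.41, and leaving out library 1 moved Reg1 to −0.00479. Reg3a has 4 such fits.

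Acinar RNA varied between libraries, and Reg1 was highest and lowest in the same libraries as it was. The acinar share, the percent of counts in 26 acinar enzyme genes with no Reg gene among them, was 14.5%, 8.08%, 8.06% and 8.11% in controls 1 to 4 and 20.7%, 10.7%, 7.19% and 12.3% in Notch-active libraries 1, 2, 4 and 5, each with a 95% binomial interval (Wilson) at most 0.0341 percentage points wide. In bulk RNA, fewer acinar cells and less RNA per acinar cell cannot be told apart. The 26 enzymes had a median log2 fold change of 0.46 with 0 passing the test, and Amy2a5 (amylase), the most abundant of them, had 0.37 (SE 0.41, edgeR adjusted p = 0.541). β-tetO-NICD library 1 was the highest library for 23 of the 26 and for Reg1, and library 4 had the lowest acinar share and the lowest Reg1.

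Across the 8 libraries, log2 CPM of Reg1 followed log2 acinar share with Pearson's r = 0.90 (exact two-sided permutation p = 0.00402) and Spearman's rho = 0.81 (exact permutation p = 0.0218). Adjusted over all 15082 genes tested, these were 0.918 and 1, and 0% of genes passed, where 1.93% had an unadjusted permutation p under 0.05 for r. Reg1 ranked 44 by r, and 0.292% of genes had an r at least as high. Without control 1 and β-tetO-NICD library 1, the libraries farthest from the median share, r was 0.75 (exact permutation p = 0.0778), which no longer passed 0.05. Leaving out β-tetO-NICD library 1 alone gave 0.76.

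The enzymes themselves had r between 0.46 and 0.99 with a median of 0.94, each being part of the share, so the r of Reg1 lay within their range. The 6 acinar identity regulators, transcription factors that are not part of the share, had a median r of 0.77, from 0.05 for Mecom to 0.83 for Nr5a2. Among these, Bhlha15, the most abundant, had 0.12, and Ptf1a, the factor that forms the PTF1 complex, had 0.79. Replacing the share by the regulators' mean log2 CPM gave 0.82 for Reg1.

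The other 4 tested Reg genes had lower r over the 8 libraries, but the order of Reg1 and Reg3d turned when the 2 farthest libraries were left out. Reg3d had r = 0.49 over all 8 (exact permutation p = 0.214). Over the remaining 6 libraries it had 0.88 (exact permutation p = 0.00972) beside 0.75 for Reg1, and both had an adjusted p of 0.440 by this exact permutation test over all genes. For Reg2, Reg3a and Reg3b, r was −0.10, 0.13 and −0.19 (exact permutation p = 0.805, 0.754 and 0.652), and each of the 4 genes had an adjusted p of 1 over all genes tested. Spearman's rho was 0.57, −0.10, 0.10 and −0.26 for Reg3d, Reg2, Reg3a and Reg3b (exact permutation p = 0.151, 0.840, 0.840 and 0.536, adjusted p = 1 for each). Without the 2 farthest libraries, r for Reg2, Reg3a and Reg3b was 0.19, 0.59 and 0.19.

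**Figure D3:**
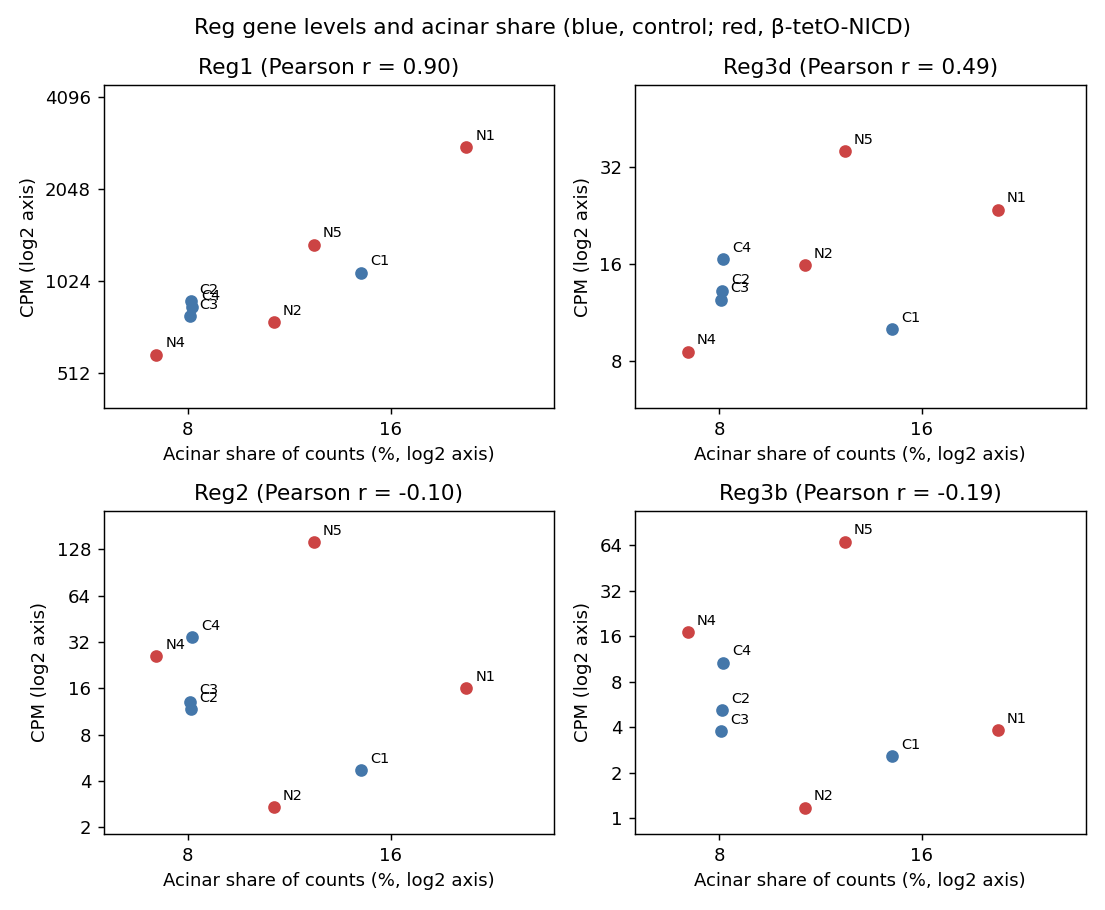
CPM of Reg1, Reg3d, Reg2 and Reg3b against acinar share of counts (percent) in the 8 libraries, both on log2 axes, with controls in blue and β-tetO-NICD libraries in red. Reg1 is higher at higher shares (r = 0.90), while the highest Reg2 and Reg3b are in library N5, at a share of 12.3%.

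A fit with acinar share as covariate gave the slope within groups and the group difference at equal share. The slope of Reg1 was 1.24 on the log2 scale per doubling of acinar share (SE 0.25, edgeR adjusted p = 0.308), and between 0.82 and 1.497 with each library left out. Its unadjusted edgeR p was 0.000715. By this test 0% of 15082 genes passed, and 3.69% had an unadjusted p under 0.05. Slopes of Reg2, Reg3a, Reg3b and Reg3d were −0.98, −0.13, −1.12 and 0.47 (SE 1.55, 1.87, 1.48 and 0.46, lowest edgeR adjusted p = 0.920). All 26 enzyme genes had positive slopes, with a median of 1.10.

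At equal acinar share the group difference of Reg1 was −0.08 (SE 0.26, edgeR adjusted p = 0.847), against 0.61 without the covariate. The estimates for Reg2, Reg3a, Reg3b and Reg3d were 2.05, 2.39, 2.46 and 0.44 (SE 1.27, 1.49, 1.17 and 0.43), with edgeR adjusted p = 0.268, 0.271, 0.168 and 0.485. Again 0 of the 5 passed, beside 7.53% of all genes in this fit.

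Counts per 1000 acinar enzyme counts do not depend on library size. For Reg1 these were 7.27, 11.5, 9.49 and 10.9 in controls 1 to 4 and 13.1, 6.76, 9.31 and 9.73 in Notch-active libraries 1, 2, 4 and 5, a 1.94-fold range where CPM spanned 4.77-fold. The group means were 9.79 ± 1.88 and 9.72 ± 2.60 (SD, n = 4 each). The log2 ratio differed by −0.03 (exact two-sided permutation p = 0.914 over 70 arrangements). Reg2, Reg3a, Reg3b and Reg3g still spanned 42.3-, 43.0-, 46.2- and 47.4-fold across libraries per acinar count, and Reg3d 3.87-fold. Differences in log2 ratio for Reg2, Reg3a, Reg3b, Reg3d and Reg3g were 0.30, 0.86, 0.44, 0.14 and 0.96, with exact permutation p between 0.486 and 0.886, where the smallest p possible was 0.0286. These p values of 6 comparisons are not adjusted.

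Reg2, Reg3b and Reg3a varied together across the 8 libraries, apart from Reg1. Reg2 and Reg3b had Pearson's r = 0.96 (exact permutation p = 0.000273) and Spearman's rho = 0.90 (exact permutation p = 0.00456), although both ranged more than 50-fold. Reg2 and Reg3a had r = 0.89 (exact permutation p = 0.000198) and rho = 0.95 (exact permutation p = 0.00114), and Reg3a and Reg3b had r = 0.87 (exact permutation p = 0.00714) and rho = 0.88 (exact permutation p = 0.00724). Adjusted over all 15082 genes tested against Reg2, the values for r were 0.686 for both Reg3b and Reg3a, and against Reg3a the value for Reg3b was 0.620. Those for rho were 1, 1 and 0.998.

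The relation of Reg2 to Reg3b did not rest only on the highest libraries. Without β-tetO-NICD libraries 2 and 5, the farthest from the median of Reg2, r was 0.84 between Reg2 and Reg3b and 0.82 between Reg2 and Reg3a. Leaving out control 4 and β-tetO-NICD library 5 gave 0.90 and 0.74, and 0.61 between Reg3a and Reg3b. In the libraries that remained, Reg3a had only 4 to 12 counts, so its values there are near the detection limit. No permutation test was run on these reduced sets of libraries. Each Reg2 count was accompanied by 0.240 to 0.658 Reg3b counts, a 2.74-fold range.

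Reg1 had r between 0.03 and 0.29 with Reg2, Reg3a and Reg3b (exact permutation p between 0.412 and 0.941), while the ratio of Reg2 to Reg1 counts spanned 29.4-fold. Reg3d had r = 0.65 to Reg1, 0.77 to Reg3a, 0.56 to Reg2 and 0.43 to Reg3b (exact permutation p = 0.0847, 0.0268, 0.150 and 0.287). Without control 4 and β-tetO-NICD library 5 these were 0.78, 0.27, −0.12 and −0.48. The 10 pairs were all computed.

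**Figure D4:**
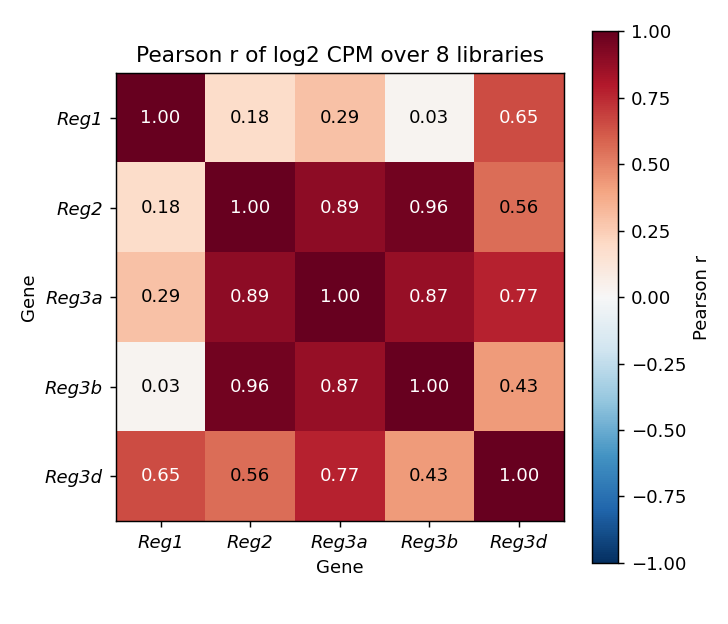
Pearson's r of log2 CPM between the 5 tested Reg genes over 8 libraries, from −1 (blue) to 1 (red), with the value in each cell. Reg2, Reg3a and Reg3b form a block with r between 0.87 and 0.96, and Reg1 has r of at most 0.29 with these 3.

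Among all tested genes, the 3 with profiles most like Reg1 by Pearson's r were Mfsd7c (0.98), Tmed11 (0.96) and Serpini2 (0.94). For Reg2 they were Oaz3 (0.98), Reg3b (0.96) and Ankrd45 (0.94), and for Reg3b they were Cenpm (0.96), Reg2 (0.96) and Oaz3 (0.96). Reg3a was nearest to Glrx2 (0.97), Ccnb2-ps (0.97) and Tnfsf13 (0.95), and Reg3d to Gm10912 (0.94), Aste1 (0.94) and Adamtsl5 (0.93). Reg2 and Reg3b were thus the only members among each other's 3 nearest genes. These are the highest correlations over all 15082 genes tested and are given as a description.

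Libraries with and without Eif2s3y overlapped in the level of every Reg gene, and none of the 5 tested Reg genes passed the test between them. Control 4 and β-tetO-NICD library 5, which had the highest Reg2, Reg3a, Reg3b and Reg3g of their groups, both had Eif2s3y counts, and so did control 2, where Reg3a was 0.211 CPM. Within groups, the log2 difference of libraries with Eif2s3y was 2.27 for Reg2, 3.24 for Reg3a, 2.24 for Reg3b, 0.75 for Reg3d and −0.09 for Reg1 (SE 0.71, 0.67, 0.74, 0.32 and 0.50). Unadjusted edgeR p values were 0.0113, 0.00106, 0.0148, 0.0438 and 0.865, and none passed after adjustment (lowest edgeR adjusted p = 0.760). In this comparison 0.0133% of genes passed, and 5.14% had an unadjusted p under 0.05. By the size of the edgeR F statistic among 15082 genes, Reg2 ranked 184, Reg3a 19, Reg3b 237, Reg3d 672 and Reg1 13094. In the β-tetO-NICD group only library 5 had more than 1 Eif2s3y count, so there the comparison rests on that library alone. Library 5 was also the highest of all for Reg2, Reg3a, Reg3b and Reg3d, and Reg3a was near the detection limit in most libraries. With Eif2s3y as covariate, group differences were 1.46, 2.29, 1.95, 0.79 and 0.59 for Reg2, Reg3a, Reg3b, Reg3d and Reg1, with edgeR adjusted p between 0.0929 and 0.407.

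The summed levels of 3 marker lists were highest in β-tetO-NICD library 5. The 10 duct markers summed to 773 CPM there, against 326 to 463 CPM in controls and 453 to 584 CPM in the other β-tetO-NICD libraries, and 6 of the 10 were highest in it. Of the 20 genes of acinar stress and metaplasia 8 were highest in library 5, with a sum of 2224 CPM against 863 to 1229 CPM in controls and 1431 to 1773 CPM in the other β-tetO-NICD libraries. The macrophage sum was 339 CPM there, 240.4 to 311 CPM in the other β-tetO-NICD libraries and 160 to 212 CPM in controls, and 2 of the 10 markers were highest in library 5, fewer than the 3 in control 4. Krt19, Sox9, Muc1 and Tff2 belong to both the duct and the stress list and were all highest in library 5, so those sums are not separate. Of the macrophage sum in library 5, C1qa gave 181 CPM, while Itgam was at its lowest of all 8 libraries, at 0.755 CPM. No member of these 3 lists was at 0 in that library. In control 4, the duct sum was 326 CPM, the lowest of all 8. The part of these cells in the Reg2 and Reg3 levels was not tested.

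Libraries also differed in how expression followed transcript length, in part along with group. Spearman's rho across genes between a library's deviation from the mean and length was 0.44 to 0.51 in controls 1, 2 and 4 and −0.18 in control 3. In Notch-active islets it was 0.47 in library 1 and −0.55 to −0.36 in the other 3 libraries. Genes are not independent, so no p is given. With an offset for length, the log2 fold changes were 0.27 for Reg1, 0.73 for Reg2, 1.52 for Reg3a, 1.21 for Reg3b and 0.13 for Reg3d, and again none passed edgeR's test.

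The list of inducing cytokine pathways held 23 genes of IL-6, IL-22 and STAT3 signaling and IL-17 receptor subunits. Of these, 18 could be tested, 1 was higher and 0 lower, with a median log2 fold change of −0.26, beside 6.76% of all 15082 genes that passed (632 higher and 388 lower). The gene that passed was an IL-17 receptor subunit. Il17rc rose from 12.0 ± 0.927 to 18.3 ± 1.03 CPM (SD, n = 4 each), a log2 fold change of 0.61 (SE 0.13, edgeR adjusted p = 0.0277). Jak1, the most abundant of the list and a kinase of IL-6 and IL-22 receptors, had −0.94 (SE 0.26, edgeR adjusted p = 0.0597). Directions were mixed, as 8 of the 18 had a positive fold change, among them Socs3 at 0.76 (SE 0.24, edgeR adjusted p = 0.0816). Il6 and Il22 were among the members not tested, with at most 5 and 8 counts in any library. The list summed to 622 CPM in β-tetO-NICD library 5, the lowest of all 8, with 5 of the 23 members at 0 there. Controls had 843 to 1046 CPM, with 1021 in control 4, and the other β-tetO-NICD libraries 704 to 867 CPM. The relation of this sum to Reg levels was not tested. The 3 candidate receptor genes of Reg proteins were tested and 0 passed, with Extl3 at 61.7 ± 15.2 CPM in controls against 52.0 ± 17.7 CPM in Notch-active islets (SD, n = 4 each, log2 fold change −0.25, edgeR adjusted p = 0.511).

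Of the 20 acinar stress and metaplasia genes, 19 were tested, 2 were higher and 0 lower, with a median log2 fold change of 0.46, beside the 6.76% of all genes that passed. Clu (clusterin), a secreted chaperone, had 192, 186, 175 and 164 CPM in controls 1 to 4 and 338, 580.0, 513 and 572 CPM in Notch-active libraries 1, 2, 4 and 5. The groups did not overlap, and the log2 fold change was 1.48 (SE 0.20, edgeR adjusted p = 0.00288). Hp (haptoglobin), an acute phase protein, had 2, 1, 26 and 2 counts in controls and 180, 418, 597 and 492 counts in the Notch-active libraries, a log2 fold change of 5.78 (SE 0.77, edgeR adjusted p = 0.00289). Clu, Hp and Krt19 had every β-tetO-NICD library above every control, and Myc had every one below. Over all genes tested, 16.1% showed no overlap between the groups. Krt19 and Myc did not pass the test (log2 fold change 1.17 and −0.65, edgeR adjusted p = 0.0597 and 0.0779).

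Among the other marker lists, read against the same 6.76% of all genes (632 higher and 388 lower of 15082), 5 of 8 alpha cell genes and 1 of 5 delta and PP cell genes were higher, 3 of 10 beta cell genes were lower, and 2 of 10 macrophage genes (Cd14 and C1qa) were higher. The duct (10 genes), endothelial (6), stellate and fibroblast (8) and acinar regulator (6) lists had 0 passing genes, as did the 5 tested of 10 lymphoid genes.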

How the data were processed

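Islet RNA of 8 mice was measured by poly(A) RNA-seq. The authors pseudoaligned reads to the GRCm38 transcriptome with Kallisto and deposited whole-number counts per gene symbol, not normalized. Versions are not given in the sources used here. The deposited table of the authors' own limma comparison, with fold changes, p values and scores, was not used. Columns were assigned by name.

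The statistical analysis used edgeR 4.0.16 under R 4.3.3 (TMM library sizes, quasi-likelihood test, a minimum of 10 counts in at least 4 libraries, Benjamini-Hochberg adjusted p under 0.05). A count test was used where the study used limma. Levels for correlations are log2 CPM with a prior count of 2. Permutation tests enumerate all 40320 pairings or 70 arrangements. DESeq2 1.42.0 and limma-voom (limma 3.58.1) were among the alternatives. Fits were tested on simulated data. Depth of 21701223 to 26413146 counts puts 3 counts at 0.0995 to 0.151 CPM, and intervals cover counting error only.

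Members and gene lists were chosen with earlier results of these data known. Named genes are the Reg genes, the 3 nearest genes to each tested one, list members that passed the test or were most abundant in their list, and Notch1 and Hes1. Other genes (Mecom, Nr5a2, Ptf1a, Krt19, Myc, Sox9, Muc1, Tff2, Itgam, Il6, Il22, Socs3) were named after their values were seen. Protein sequences were not used here.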

Additional observations from a re-analysis of the deposited data

Results flagged for a closer look

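In 28 groups of 4 libraries (levels and acinar ratios of 6 Reg genes, acinar share and Reg family share), the gap of the most extreme library to its neighbor was set against the group's range. Of these, 7 exceeded Dixon's 95% critical value, which flags about 1 in 20 independent groups of normally distributed values. The groups here are not independent, since each gene enters in CPM and per acinar count, and Reg2, Reg3a and Reg3b varied together. Values were also not log-transformed, so the 7 flags cannot be read against that rate. β-tetO-NICD library 5 stood apart for Reg2 in CPM (gap 0.835 of the range, 142 CPM against 2.71 to 25.8), Reg3a (gap 0.958, 7.30 CPM against 0.175 to 0.475), Reg3g (gap 0.913, 2.01 CPM against 0.0950 to 0.262) and Reg3a per 1000 acinar counts (gap 0.907). Control 4 stood apart for Reg3a in CPM (gap 0.968, 1.01 CPM against 0.184 to 0.211) and per 1000 acinar counts (gap 0.872). Control 1 stood apart for acinar share (gap 0.991, 14.5% against 8.06% to 8.11%).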

How the results depend on the processing

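No Reg gene passed in any of the alternative fits of the group difference, 22 per gene and 16 for Reg3a. These fits share libraries and gave 103 adjusted edgeR, DESeq2 or limma-voom p values over the 5 genes, the lowest being 0.0784 (edgeR) for Reg3b without β-tetO-NICD library 1. DESeq2 gave Reg3a no adjusted p. The log2 fold change turned negative for Reg1 with library sizes from acinar counts (−0.010) or acinar share as covariate (−0.077). The replicate numbers pair only libraries 1 and 2 of each group, whose deviations correlated at 0.0617 across genes. With 2 pairs, this cannot settle whether libraries of the same number share more than the number. With this replicate block, Reg2 was at −0.13 and Reg3b at −0.75, and 595 genes passed, while the same 4 libraries without a block, an alternative chosen after seeing the data, gave 0.19 for Reg2, −0.63 for Reg3b and 52 genes. Beside 1020 genes in the reported fit, 2739 passed with DESeq2, 395 with acinar library sizes, 1596 with a length offset, 104 among the 5 libraries without Eif2s3y and 319 to 4953 with 1 library left out, where the highest came without β-tetO-NICD library 1. The causes were not tested.

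With 1 library left out, ranges that crossed 0 were −0.00479 to 0.86 (Reg1) and −0.10 to 2.26 (Reg2) for the group difference, −0.35 to 0.083 (Reg1) and −0.024 to 1.12 (Reg3d) at equal acinar share, and −2.30 to 0.17 (Reg2), −0.63 to 1.005 (Reg3a), −2.21 to 0.27 (Reg3b) and −0.27 to 0.97 (Reg3d) for the slope on acinar share. The correlation with acinar share ran from −0.34 to 0.044 (Reg2) and −0.054 to 0.25 (Reg3a). Log2 ratios to acinar counts ran from −0.18 to 0.13 (Reg1), −0.58 to 1.22 (Reg2), −0.20 to 1.54 (Reg3a), −0.49 to 1.36 (Reg3b) and −0.21 to 0.35 (Reg3d). The share from 5 enzymes turned the slope of Reg3a to 1.05, the acinar regulators turned its correlation to −0.16, and leaving out the 2 farthest libraries turned those of Reg2 and Reg3b to 0.19 each. Reg3a, Reg3g and Reg4 are limited by depth, and every group comparison by the spread between 4 mice.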
